A study of Mus musculus with 6 samples.

Results

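Complex I (NADH:ubiquinone oxidoreductase) was described through its nuclear genes in iWAT, the inguinal white fat depot, of mice carrying an *Hlx* transgene. The genes were taken by name, as every row of the deposited table with a symbol that starts with Nduf. There were 43 such rows of 19445 in the table, carrying 42 symbols. The measured symbols comprised 7 core subunits, 29 accessory subunits, 4 assembly factors (*Ndufaf1* to *Ndufaf4*), and *Ndufa4* and its paralogue *Ndufa4l2*, which carry the family name but are now assigned to complex IV or to no complex. In RefSeq, 7 further protein-coding Nduf genes are annotated (*Ndufaf5*, *Ndufaf6*, *Ndufaf7*, *Ndufaf8*, *Ndufb1*, *Ndufb4b* and *Ndufb4c*), and they were not analysed here. The 7 subunits encoded by mitochondrial DNA were not analysed here either.

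Complex I takes electrons from NADH at the tip of its matrix arm, passes them along iron-sulfur clusters to ubiquinone, and pumps protons through its membrane arm. The core subunits carry out these reactions, the accessory subunits surround and stabilise them, and assembly factors help to build the complex without remaining in it. Brown and beige adipocytes are packed with mitochondria, and the respiratory chain supplies the proton gradient that uncoupling dissipates as heat.

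RNA-Seq libraries were made from the iWAT of 3 *Hlx* transgenic mice (TG) and 3 wild-type littermates (WT), 12 weeks old, with 1 library per mouse. The transgene was an *Hlx* cDNA behind the *aP2* (*Fabp4*) promoter, which is active in adipocytes. Embryos of C57BL/6 and SJL hybrid mice were injected and the lines were backcrossed to C57BL/6. No treatment was given to either genotype. The number of transgenic founder lines behind these 3 mice is not given in the sources used here. Levels are FPKM, a read density per transcript length and per mapped read.

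*Hlx* itself had 109.7, 79.6 and 99.5 FPKM in TG replicates 1, 2 and 3, and 6.88, 7.35 and 8.14 FPKM in WT replicates 1, 2 and 3. The labels give male mice, whereas *Xist* lay between 20.2 and 33.6 FPKM in the 6 libraries and 0 of 28 loci of the Y chromosome had a value above 0, so the libraries go against their labelled sex in both genotypes alike. FPKM sums of a library ran from 466059 to 542096, and the absolute depth is unknown. Genes were tested with limma on log2(FPKM + 1) over the 11692 loci with a mean above 1 FPKM in at least 1 genotype, with Benjamini-Hochberg adjustment over all of them. An adjusted p under 0.05 is called a rise or a fall. Among all tested loci 1352 were called higher (11.6%) and 822 lower (7.03%), or 1087 higher and 1173 lower when the libraries were scaled to equal FPKM sums. With 3 mice against 3, an exact two-sided permutation of the mice gives at best p = 0.1 for one gene. Each of the 42 tested Nduf rows reached it, as does any locus whose groups do not overlap. With TG higher, that held for 22.8% of all tested loci.

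To show the regulatory sequence near these starts, RefSeq promoter windows (build GRCm38.p6, 250 bases before to 50 after the start) were searched on both strands for 4 short motifs. Windows existed for 37 of the 42 genes, 39 windows in all, and *Ndufs1*, *Ndufb9*, *Ndufa2* and *Ndufa4l2* were among the genes without one. The NRF1 core GCGCANGCG, named for nuclear respiratory factor 1, was present in 10 of the 39 windows (25.6%), those of 9 genes, and in 6.25% of all 32851 windows of the table. The windows of *Ndufa5*, from different starts, hold the same site. The YY1 element AANATGGCG was present in 7 (17.9%, against 2.38% of all windows). The windows of all genes were not matched to these in base content or expression, and what underlies the higher NRF1 and YY1 shares was not tested. The ETS element CCGGAAGT was in 1 (2.56%, against 3.89%), and the estrogen-related receptor element TCAAGGTCA in 0 (against 0.423%). The ETS and estrogen-related receptor elements are rare in all windows, so 1 and 0 matches in 39 windows cannot show a lack of either. A match describes the letters in the window and is not a measured binding site. The 60-base stretches below, on the gene's own strand, are those of every gene with a motif that ended before the start, apart from *Ndufa7*, whose stretch lies inside the gene as RefSeq annotates it. They hold the motif nearest to the start. Capitals mark the NRF1 core on either strand, or in *Ndufb11* the YY1 element.
*Ndufa8*, chr2:36049339-36049398, minus strand: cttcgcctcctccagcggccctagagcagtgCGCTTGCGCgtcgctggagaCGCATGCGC
*Ndufaf4*, chr4:24897945-24898004, plus strand: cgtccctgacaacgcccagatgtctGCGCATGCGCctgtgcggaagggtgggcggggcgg
*Ndufs5*, chr4:123718251-123718310, minus strand: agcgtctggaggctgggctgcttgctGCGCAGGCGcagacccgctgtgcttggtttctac
*Ndufa5*, chr6:24527691-24527750, minus strand: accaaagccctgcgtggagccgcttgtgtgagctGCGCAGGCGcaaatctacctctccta
*Ndufs6*, chr13:73328483-73328542, minus strand: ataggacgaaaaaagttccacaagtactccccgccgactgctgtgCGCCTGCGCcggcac
*Ndufb4*, chr16:37654369-37654428, minus strand: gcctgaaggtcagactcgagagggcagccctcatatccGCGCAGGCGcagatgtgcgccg
*Ndufa11*, chr17:56717677-56717736, plus strand: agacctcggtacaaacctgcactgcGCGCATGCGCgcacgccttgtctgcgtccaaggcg
*Ndufb11*, chrX:20617797-20617856, minus strand: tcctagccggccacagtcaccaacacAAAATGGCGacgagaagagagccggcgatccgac

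The Nduf genes rose together in transgenic iWAT. Of the 42 tested, 37 were called higher (limma, adjusted p under 0.05, n = 3 mice per genotype), beside 11.6% of all tested loci, and none was called lower, beside 7.03%. All 42 log2 fold changes were above 0, beside 48.4% of all tested loci. In all 42 the lowest TG value was above the highest WT value, a pattern shown by 22.8% of all tested loci in this direction. Their median log2 fold change was 0.83, from 0.26 for *Ndufa4l2* to 1.63 for *Ndufv1*, whereas the median of all tested loci was -0.01. Mean FPKM was at least 2-fold higher in 13 of the 42, beside 4.52% of all tested loci. Without the filter on low values, 24 of the 42 were called higher. Together the Nduf rows made up 2.97%, 2.47% and 2.64% of the FPKM sum in TG replicates 1, 2 and 3, and 1.54%, 1.57% and 1.41% in WT replicates 1, 2 and 3. In bulk tissue, more cells of a type and more RNA per cell cannot be told apart.

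**Figure D1:**
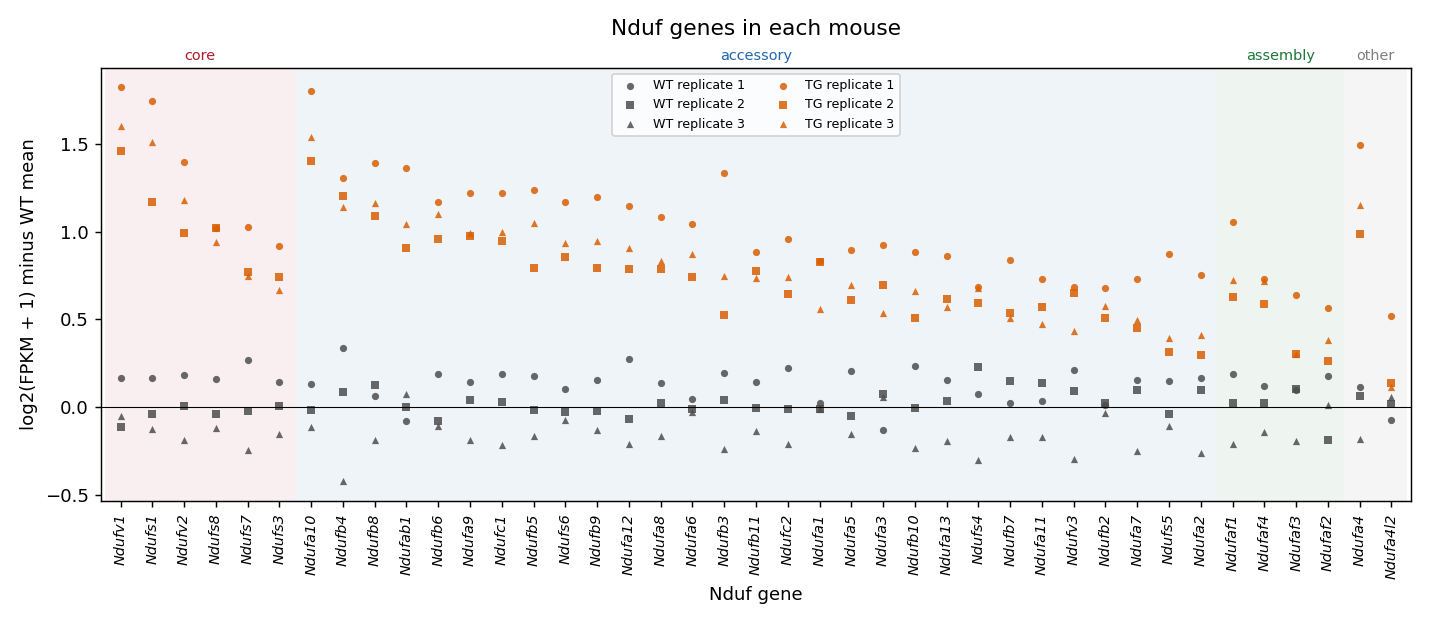
Each point is 1 mouse, as log2(FPKM + 1) minus the mean of the 3 WT mice (y axis), for 41 tested Nduf genes (x axis), ordered by change within core subunits, accessory subunits, assembly factors and the others. All TG points (orange) lie above all WT points (dark grey) of the same gene, and TG replicate 1 (circles) is the highest of the TG mice in 40 of the 41.

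Some mice held the same rank in most of the family, as the plot of each mouse shows. TG replicate 1 had the highest TG value in 41 of 42 genes, and at 43.2% of all tested loci. TG replicate 2 had the lowest TG value in 29, and at 34.4% of all tested loci, and TG replicate 3 in the other 13. In the controls, WT replicate 1 was highest in 33 and WT replicate 3 lowest in 36, against 38.8% and 35.7% of all tested loci. The genes of one mouse share a library, and they are not independent measurements of the genotype. Relative to the WT mean, the median Nduf gene stood at 1.02, 0.76 and 0.74 (log2) in TG replicates 1, 2 and 3, and at 0.15, 0.01 and -0.17 in WT replicates 1, 2 and 3. Without TG replicate 1 the median log2 fold change over the family was 0.73 with 31 calls.

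All 7 core subunits rose, with a median log2 fold change of 1.19 and a ratio of mean FPKM between 1.72 and 3.11. The 3 core subunits of the NADH-oxidising module had ratios of 2.30 to 3.11.

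*Ndufv1*, on chromosome 19 from 4007499 to 4012755 (RefSeq, GRCm38.p6), encodes the subunit that binds NADH and the flavin. It had 403, 313 and 345 FPKM in TG replicates 1, 2 and 3, and 127, 104 and 109 FPKM in WT replicates 1, 2 and 3. The lowest TG mouse was thus more than 2-fold above the highest control. The log2 fold change, the largest of the family, was 1.63 (limma adjusted p = 0.000715, standard error 0.13). *Ndufs1*, on chromosome 1 from 63143592 to 63176822, carries iron-sulfur clusters next to the flavin site. It had 306, 205 and 260.0 FPKM in the TG mice and 102, 88.2 and 83.1 FPKM in the WT mice, in replicate order. Here the TG mice spread more widely than the controls, without overlap. Its log2 fold change was 1.47 (limma adjusted p = 0.00194, standard error 0.16). *Ndufv2*, on chromosome 17 from 66078795 to 66101559, holds another cluster beside *Ndufv1* and rose from 113 ± 14.5 FPKM (SD, n = 3) to 258 ± 36.8 FPKM (SD, n = 3), a log2 fold change of 1.19 (limma adjusted p = 0.00262).

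Of the ubiquinone-reducing module, *Ndufs8* and *Ndufs7*, which carry the last clusters before ubiquinone, had 190 ± 6.22 and 291 ± 32.1 FPKM in TG and 95.2 ± 9.68 and 162 ± 29.2 FPKM in WT iWAT (SD, n = 3 each). Their log2 fold changes were 0.99 and 0.85 (limma adjusted p = 0.0014 and 0.0113). *Ndufs8* was the only core subunit in which TG replicate 1 was not the highest, with 193.7, 193.8 and 183 FPKM in TG replicates 1, 2 and 3. *Ndufs3*, on chromosome 2 from 90894627 to 90904721, had the smallest core change, from 66.7 ± 6.94 to 115 ± 10.6 FPKM (SD, n = 3 each; log2 fold change 0.77, limma adjusted p = 0.00489). The deposited loci of *Ndufs7* (672333 bases), *Ndufs1* (129022 bases), *Ndufb11* (35613 bases) and *Ndufa2* (22615 bases) are more than 3 times as long as the genes in RefSeq, so their values rest on the authors' assignment of reads within those stretches.

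**Figure D2:**
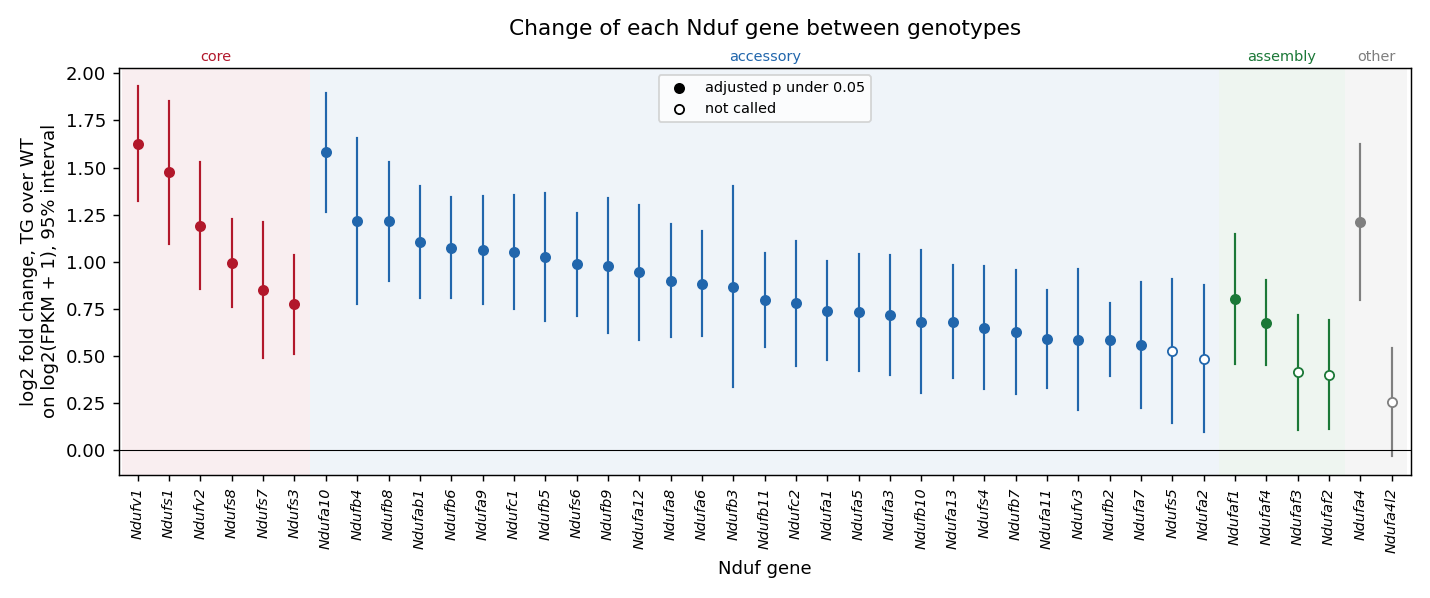
The log2 fold change of TG over WT on log2(FPKM + 1) is plotted for 41 tested Nduf genes with its 95% interval from limma (bars, n = 3 mice per genotype). Filled points have an adjusted p under 0.05, and the open points are *Ndufs5*, *Ndufa2*, *Ndufaf3*, *Ndufaf2* and *Ndufa4l2*.

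Of the 29 accessory subunits tested, 27 rose and 2 were not called, with a median log2 fold change of 0.80 and a ratio of mean FPKM between 1.40 and 3.02. *Ndufa10*, a membrane-arm subunit on chromosome 1 from 92439486 to 92473825, changed most. It had 628, 476 and 524 FPKM in TG replicates 1, 2 and 3, against 196, 177 and 166 FPKM in the WT mice. Its log2 fold change was 1.58 (limma adjusted p = 0.000829, standard error 0.13). Next came *Ndufb4*, *Ndufb8*, *Ndufab1* and *Ndufb6*, with log2 fold changes of 1.22, 1.21, 1.11 and 1.08 (limma adjusted p = 0.00641, 0.00204, 0.0022 and 0.00176). Differences between these genes were not tested, and the 95% interval of *Ndufb4*, 0.78 to 1.65, holds the value of *Ndufa10*. *Ndufb8*, a subunit of the distal membrane arm whose protein is a common blot marker of assembled complex I, had 711, 577 and 608 FPKM in the TG mice and 283, 295 and 237 FPKM in the WT mice. *Ndufab1*, the mitochondrial acyl carrier protein, had 67.5, 49.0 and 53.9 FPKM in the TG mice and 24.2, 25.7 and 27.0 FPKM in the WT mice.

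The smallest changes among accessory subunits were those of *Ndufa2*, *Ndufs5*, *Ndufa7*, *Ndufb2* and *Ndufv3*. *Ndufa2*, in the NADH-oxidising module, had 316, 230.1 and 248 FPKM in the TG mice and 210, 200.4 and 156 FPKM in the WT mice, a log2 fold change of 0.49 (limma adjusted p = 0.0812, standard error 0.16). *Ndufs5*, in the proximal membrane arm, had 241, 163 and 173 FPKM in the TG mice and 145, 127 and 122 FPKM in the WT mice, a log2 fold change of 0.53 (limma adjusted p = 0.0628). In both, the groups were parted by less than the spread within TG. *Ndufa7*, *Ndufb2* and *Ndufv3* had log2 fold changes of 0.56, 0.59 and 0.59 (limma adjusted p = 0.0362, 0.00451 and 0.0437). *Ndufb2* had 143, 127 and 134 FPKM in the TG mice and 89.95, 90.5 and 87.1 FPKM in the WT mice, and its standard error of 0.08 was the smallest of the family. The other 19 accessory subunits lay between 0.59 and 1.06 with adjusted p up to 0.039 (limma), and all 19 rose. Leaving out 1 mouse at a time ended the call of 6 accessory subunits (*Ndufa7*, *Ndufb3*, *Ndufb7*, *Ndufb10*, *Ndufs4* and *Ndufv3*), with log2 fold changes of 0.44 to 0.97 where the call was lost. All 6 were lost without TG replicate 1 and without TG replicate 3, 2 without TG replicate 2, and 3, 4 and 5 without WT replicates 1, 2 and 3. Quantile normalization also ended 6 accessory calls, those of *Ndufa3*, *Ndufa7*, *Ndufb3*, *Ndufb7*, *Ndufb10* and *Ndufv3*, with log2 fold changes of 0.24 to 0.52.

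By position in the complex, the 17 matrix-arm subunits had a median log2 fold change of 0.95 and the 19 nuclear-encoded membrane-arm subunits 0.80. Within the matrix arm, the 8 subunits of the NADH-oxidising module had a median of 0.97 with 7 called higher, and the 5 of the ubiquinone-reducing module 0.85 with 5 called higher. Within the membrane arm, the 9 proximal subunits had a median of 0.74 with 8 called higher, and the 10 distal subunits 0.92 with 10 called higher. Each of these groups spanned a range wider than the gap between the medians, and these gaps were not tested.

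Levels per transcript length differed widely between subunits of a complex that holds most of them once. *Ndufb9* (579 FPKM), *Ndufa6* (402 FPKM) and *Ndufb10* (376 FPKM) were the most abundant accessory subunits in WT iWAT, and they rose to 1146, 745 and 603 FPKM. The lowest were *Ndufa11* (25.97 FPKM), *Ndufab1* (25.6 FPKM) and *Ndufb4* (3.92 FPKM). Across the 36 subunits, WT level and log2 fold change had a Spearman rho of -0.23 as a description over genes that share libraries. *Ndufb4* had 10.9, 10.1 and 9.62 FPKM in the TG mice and 5.07, 4.11 and 2.59 FPKM in the WT mice. Transcripts of *Ndufb4c* and *Gm16056* match its own at 95% identity or more over at least 100 bases, so its level is uncertain. Such a copy was found for 8 of the 42 genes (*Ndufb4*, *Ndufa12*, *Ndufab1*, *Ndufb11*, *Ndufb3*, *Ndufs3*, *Ndufs5* and *Ndufs6*). *Ndufa1* is on 2 rows with the same locus. One row is listed at practically 0 in all 6 libraries and was not tested, and the other had 510.0, 507.7 and 422 FPKM in the TG mice and 291, 283 and 284 FPKM in the WT mice (log2 fold change 0.74, limma adjusted p = 0.00611).

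**Figure D3:**
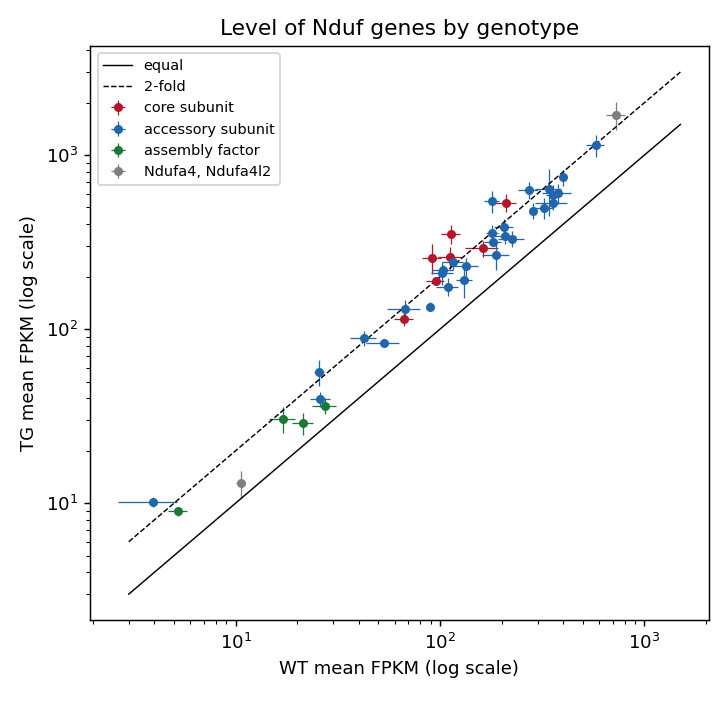
Mean FPKM in TG (y axis) is plotted against mean FPKM in WT (x axis), both on log scales, for the 42 tested Nduf genes, with error bars of 1 SD over 3 mice. All points lie above the line of equal levels, and 13 lie on or above the dashed line of a 2-fold ratio, 0 of them assembly factors.

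Of the 4 assembly factors, 2 rose and 2 were not called. Their median log2 fold change was 0.55 and their ratios of mean FPKM lay between 1.33 and 1.79. Apart from *Ndufb4*, they were less abundant than the subunits or near the lowest of them, with WT means of 5.24 to 27.3 FPKM. *Ndufaf1*, a core member of the assembly complex that builds the membrane arm, had 36.2, 26.7 and 28.5 FPKM in the TG mice and 19.4, 17.2 and 14.4 FPKM in the WT mice. The groups were well apart, with a log2 fold change of 0.80 (limma adjusted p = 0.0119, standard error 0.15). *Ndufaf4* had 9.34, 8.36 and 9.23 FPKM in the TG mice and 5.76, 5.34 and 4.63 FPKM in the WT mice, and its log2 fold change was 0.68 (limma adjusted p = 0.00476, standard error 0.10). Its partner in early assembly of the ubiquinone-reducing module, *Ndufaf3*, had 33.8, 26.6 and 26.5 FPKM in the TG mice and 22.8, 22.9 and 18.5 FPKM in the WT mice (log2 fold change 0.42, limma adjusted p = 0.0651). *Ndufaf2*, a paralogue of *Ndufa12* that acts late, when the NADH-oxidising module is joined, had 40.6, 32.7 and 35.8 FPKM in the TG mice and 30.8, 23.7 and 27.4 FPKM in the WT mice (log2 fold change 0.40, limma adjusted p = 0.0609). In both genes the lowest TG mouse was nearer to the highest control than to the highest TG mouse. The 95% intervals of their log2 fold changes were 0.11 to 0.72 for *Ndufaf3* and 0.11 to 0.69 for *Ndufaf2*. *Ndufa12* itself rose by a log2 fold change of 0.95 (limma adjusted p = 0.00772).

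The log2(FPKM + 1) scale understates the changes of the less abundant assembly factors, and the median ratio of mean FPKM, which has no pseudocount, was 2.30 for core subunits, 1.74 for accessory subunits and 1.53 for the assembly factors. The difference between subunits and assembly factors was not tested. Of the other complex I assembly factors, 6 of the 13 listed were tested and the others were not analysed here. *Foxred1*, *Ecsit* and *Atp5sl* rose, with log2 fold changes of 0.74, 0.74 and 0.40 (limma adjusted p = 0.00545, 0.0157 and 0.0151). *Acad9*, which works with *Ecsit* and *Ndufaf1*, had 13.9 ± 1.02 FPKM in TG and 13.4 ± 0.611 FPKM in WT iWAT (SD, n = 3 each; log2 fold change 0.05, limma adjusted p = 0.676). *Nubpl*, which delivers iron-sulfur clusters, and *Lyrm2* had log2 fold changes of 0.10 and 0.15 (limma adjusted p = 0.522 and 0.285).

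*Ndufa4* and *Ndufa4l2* parted. *Ndufa4* was the most abundant Nduf gene in every mouse, at 2050, 1441 and 1614 FPKM in TG replicates 1, 2 and 3 and 787, 760 and 640 FPKM in the WT mice, with a log2 fold change of 1.21 (limma adjusted p = 0.00508, standard error 0.17). *Ndufa4l2*, a paralogue known as a target of hypoxia signalling, had 15.6, 11.8 and 11.5 FPKM in the TG mice and 10.04, 10.7 and 11.1 FPKM in the WT mice. All TG values lay above the highest control, but those of TG replicates 2 and 3 only narrowly. The log2 fold change of 0.26 had a 95% interval of -0.03 to 0.54 (limma adjusted p = 0.177).

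Beside the other respiratory complexes, the 36 complex I subunits had a median log2 fold change of 0.88, with 34 called higher. Complex II had a median of 1.22 (4 of 4 called higher), complex III 1.16 (9 of 9), complex IV 1.04 (12 of 16) and ATP synthase 0.71 (9 of 15), and none of these genes was called lower. The 4 complex IV genes not called were *Cox4i2*, *Cox6a2*, *Cox6b2* and *Cox7a2l*. Their log2 fold changes were 0.09, 1.05, 0.68 and -0.08, and their WT means 6.48, 2.70, 6.07 and 128 FPKM. For *Cox6a2*, TG replicate 2 had 21.1 FPKM, against 2.11 and 3.62 FPKM in TG replicates 1 and 3. *Ndufa4* was not in the complex IV list. The subunits of complex I ranged from 0.49 to 1.63. The genes listed for complex IV ranged from -0.08 for *Cox7a2l* to 4.07 for *Cox7a1*, an isoform of brown fat and muscle. Apart from *Cox7a2l*, the lowest of them was *Cox4i2* at 0.09. The genes listed for ATP synthase ranged from -0.39 for *Atp5g3* to 1.22 for *Atp5b*. Of the 6 ATP synthase genes not called, *Atp5g1*, *Atp5g2* and *Atp5l* had low WT means of 7.70, 1.99 and 8.31 FPKM. The others, *Atp5c1*, *Atp5g3* and *Atp5j*, had 415, 354 and 509 FPKM. Medians and counts depend on which genes were listed, and the differences between complexes were not tested.

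**Figure D4:**
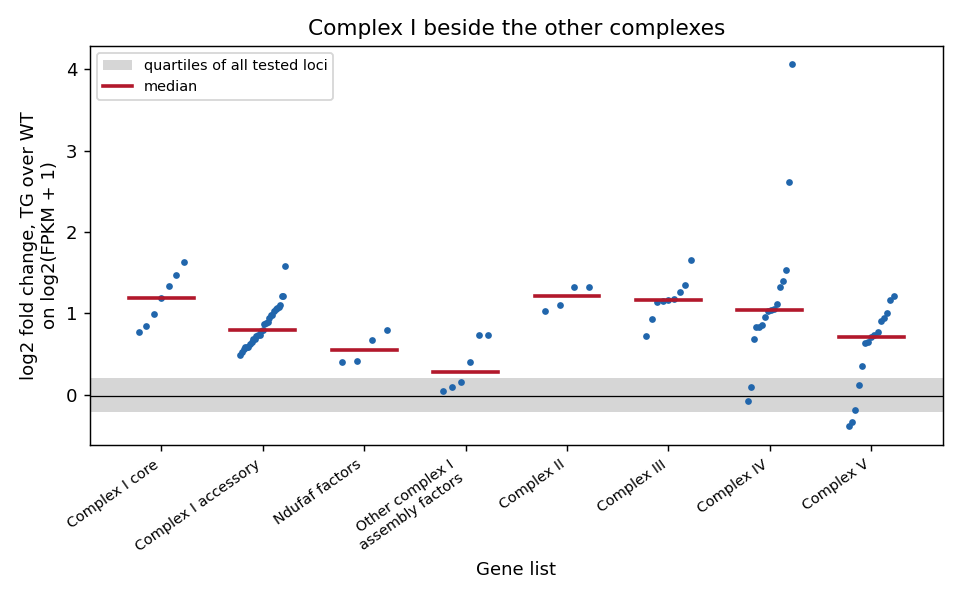
Each point is the log2 fold change of TG over WT on log2(FPKM + 1) (y axis) of 1 gene, by gene list (x axis), with red bars at the list medians and a grey band for the quartiles of all tested loci (-0.21 to 0.21). Complex I core and accessory subunits lie above the band, at medians of 1.19 and 0.80, and the Ndufaf factors have a median of 0.55.

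Markers of other cells moved with some mice. Skeletal muscle, which also expresses complex I strongly, was present unevenly. The 12 muscle markers summed to 280 to 1137 FPKM in TG and 212 to 416 FPKM in WT mice. The row of *Tnnt3* also carries *Lsp1*, and without it the sums were 116, 804 and 160 FPKM in TG replicates 1, 2 and 3 and 11.6, 177 and 51.0 FPKM in WT replicates 1, 2 and 3. No muscle marker was called (adjusted p of 0.115 or more, limma), although the median log2 fold change of the 12 was 1.89, and *Myh4* was at 0 in WT replicate 1. TG replicate 2, with the most muscle RNA, was the lowest TG mouse in 29 of 42 Nduf genes, and without it the median log2 fold change of the family was 0.89 with 35 calls. WT replicate 1, with the least muscle RNA, was the highest control in 33. Of 7 brown adipocyte markers, 6 rose, and the 7 summed to 3065 to 4316 FPKM in TG and 189 to 319 FPKM in WT mice. The other, *Dio2*, was not called, with a log2 fold change of -0.37 (limma adjusted p = 0.576). *Cidea*, *Cox7a1* and *Ucp1* made up most of the brown marker sums, and *Cox7a1* is also in the complex IV list. Of 7 adipocyte markers, 1 fell (*Adipoq*) and 6 were not called, with sums of 28295 to 33640 FPKM in TG and 24006 to 29725 FPKM in WT mice. Most of these sums came from *Fabp4*, with means of 26591 FPKM in TG and 21945 FPKM in WT mice. The median log2 fold change of the 7 was -0.02. Of 6 macrophage markers, 4 fell (*Cd68*, *Lyz2*, *Csf1r* and *Adgre1*), with sums of 348 to 493 FPKM in TG and 734 to 935 FPKM in WT mice. Lymphocyte markers had 1 of 8 called lower and sums of 291 to 396 against 394 to 566 FPKM, epithelial markers had adjusted p of 0.0792 or more and sums of 79.3 to 173 against 122 to 193 FPKM, and endothelial markers 2 of 5 called higher and sums of 140 to 148 against 124 to 134 FPKM (TG against WT). The part of these cells in the Nduf changes was not tested.

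The library kit does not mark strand, so reads from genes that overlap on opposite strands could not be parted by it. Overlaps were counted here on either strand. Exons of 7 of the 42 genes share over 10% of their bases with another annotated gene: *Ndufaf2* (65.6%), *Ndufb6* (39.0%), *Ndufa13* (29.98%), *Ndufb9* (19.5%), *Ndufb11* (12.9%), *Ndufb5* (12.3%) and *Ndufa2* (11.5%). *Ndufa2* and *Ndufaf2* were among the 5 Nduf genes not called, and the other 5 of these 7 rose.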

How the data were processed

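Polyadenylated RNA of iWAT was sequenced in 3 TG and 3 WT mice (TRIzol extraction, TruSeq libraries without strand marking, single-end reads). Per the labels and methods, the authors used CASAVA 1.8.2, aligned to mm10 with TopHat2 2.0.9 and Bowtie2 2.1.0, and deposited FPKM per locus from Cufflinks 2.2.1. Read counts cannot be had from FPKM, so the depth and its precision are unknown, and no count test was run. Here limma 3.58.1 (lmFit, eBayes with trend, two-sided) was fitted to log2(FPKM + 1) of the 6 libraries. All loci with a mean above 1 FPKM in at least 1 genotype were included. The same fit was also run on simulated data with independent normal noise, which cannot show how the test behaves on these libraries. P-values measure the spread between mice. The members and lists were chosen with earlier results of these data known.

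Core subunits, Ndufaf factors, *Ndufa4* and *Ndufa4l2* were named, except that 1 gene is counted but not reported here by itself. Of the accessory subunits, the 5 largest and 5 smallest changes, any not called, and the 3 highest and 3 lowest WT levels were named. Coordinates and promoters are from RefSeq (GRCm38.p6). Shared exons and copies were found in GENCODE transcripts with blastn 2.17.0. The alternatives were another pseudocount, filter, scaling or variance model, sample weights, a replicate block and leaving out each mouse.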

Additional observations from a re-analysis of the deposited data

How the results depend on the processing

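Over 15 alternatives, 0 of the 42 Nduf genes changed direction, and 24 of the 37 calls held in every one. Without the filter on low values, both the fit and the adjustment ran over more loci. Then 24 Nduf genes were called higher (17 accessory subunits and 1 Ndufaf factor). Of all loci, 748 were called higher and 381 were called lower, and the median over all of them was 0 (log2). The limma adjusted p of *Ndufa10* was 0.0144 without the filter and 0.000829 with it, at the same log2 fold change. What raised the adjusted p was not tested. Under quantile normalization 31 Nduf genes were called higher, and the medians were 0.57 for all Nduf genes, 0.95 for core and 0.52 for accessory subunits and -0.0293 for all loci, and with equal FPKM sums the median of all loci was -0.0971; the cause was not tested. Leaving out each mouse gave 779 to 1277 loci higher and 327 to 885 lower, and 31 to 35 Nduf genes higher with a median log2 fold change of 0.73 to 0.90. All 7 core subunits and 2 Ndufaf factors were called each time, and 21 to 25 accessory subunits. The count of lower loci fell to 466 without TG replicate 1, 327 without TG replicate 3, and 473, 416 and 400 without WT replicates 1, 2 and 3; that of higher loci fell to 804 without TG replicate 3, and 836 and 779 without WT replicates 2 and 3. The labels give no link between mice of the same replicate number. The correlations of their deviations from the group means were 0.01, 0.03 and 0.07, and no TG mouse correlated best with the WT mouse of its own number. With 3 mice per genotype, such correlations cannot show that no litter or batch was shared. With the replicate block, 1230 loci were called higher and 656 lower, and 39 Nduf genes, *Ndufs5* and *Ndufaf2* being added. FPKM without counts gives no interval for counting error.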
